A study of Arabidopsis thaliana with 6 samples.

Results

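The genes described here are the 8 protein genes rps15, ndhH, ndhA, ndhI, ndhG, ndhE, psaC and ndhD, which follow one another in this order in the plastid genome of Arabidopsis thaliana. They were taken by name and position, each through the probe set that the platform's gene table assigns to it alone, so 8 genes stand here of the 13356 genes with such a probe set. All 8 had 1 probe set, and all were measured on every array. Of 85 protein gene entries of the plastid genome, copies included, 69 had such a probe set, which leaves 61 other plastid genes for comparison. The cluster was chosen by its values on all 6 arrays, compared by genotype and by replicate number, and ndhH was the gene named with its probe set in that choice. Every value of these 8 genes is therefore a description, and no test on them is used as support.

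Whole Arabidopsis seedlings, shoot and root together, were 7 days old, from seed vernalized for 2 days, and grown on MS medium of full strength. One group carried the empty vector pCAMBIA 1302 and the other carried 35S-PaWRKY1, the gene PaWRKY1 behind the 35S promoter, which is active in most plant tissues. Each group had 3 arrays, numbered 1 to 3 in the labels and called biological replicates, and the number of transgenic lines behind them is not stated in the labels. Everything except the construct was labelled alike in both groups. The transgene itself was not analysed here, and the deposited values hold no expression level against which seedling tissue markers could be checked.

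The 6 ndh genes encode subunits of the chloroplast NADH dehydrogenase-like (NDH) complex. This complex passes electrons from ferredoxin to plastoquinone and takes part in cyclic electron flow around photosystem I. The cluster is copied into long RNAs that span several genes and are then cut and trimmed, and some of its messages are edited: in Arabidopsis the start codon of ndhD is made by C-to-U editing. Mature plastid messages mostly lack the poly(A) tails from which the standard Affymetrix procedure primes its cDNA. A value for a plastid gene can therefore move with the amount of transcript and with the share of it that is primed, and these cannot be told apart here.

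Each value is on a log scale, read as log2 because RMA values usually are, and is relative to the mean of the 3 control arrays for that probe set. It gives differences between arrays, with higher taken as more transcript by convention. Probe sets can respond unequally, so the sizes of difference below describe probe sets and cannot be turned into amounts of each message. In whole seedlings, fewer cells of a type and less RNA per cell cannot be told apart.

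Most of the 8 genes set the replicate 3 arrays apart from the other 4, in both genotypes. Both arrays numbered 3 lay above the other 4 arrays for 7 of the 8 genes, all but ndhE, whereas 12.5% of all 22746 probe sets did so. The mean of the 8 genes was 0.87 on control replicate 3 and 0.97 on 35S-PaWRKY1 replicate 3. On the other arrays it was -0.23 and -0.64 for control replicates 1 and 2, and -0.51 and -0.37 for 35S-PaWRKY1 replicates 1 and 2.

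**Figure D1:**
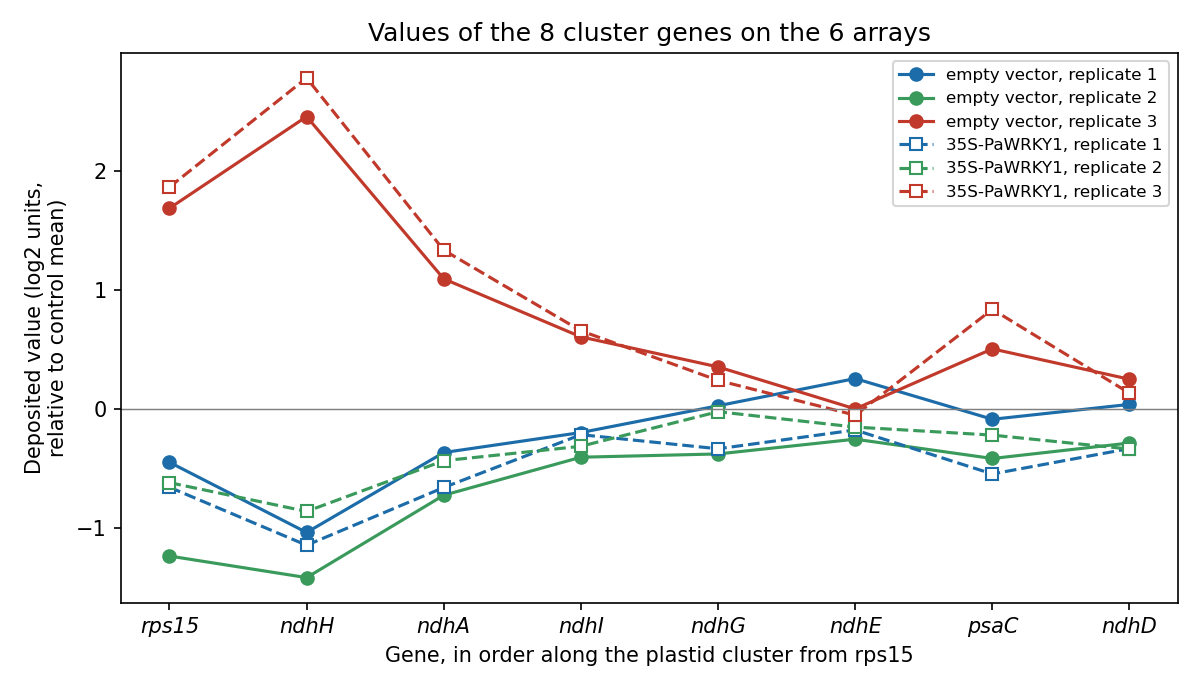
Deposited value in log2 units, relative to the control mean, of each cluster gene (horizontal axis, in cluster order from rps15) on each of the 6 arrays (one line per array, solid for empty vector and dashed for 35S-PaWRKY1). Both replicate 3 lines rise to 2.46 and 2.78 at ndhH and meet the other lines at ndhE, where they stand at -0.00012 and -0.053.

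The first 3 genes of the cluster had the widest spread. ndhH encodes a hydrophilic subunit of the NDH complex near the plastoquinone site. Its values were -1.04, -1.42 and 2.46 on control replicates 1, 2 and 3 and -1.15, -0.86 and 2.78 on 35S-PaWRKY1 replicates 1, 2 and 3. Replicate 3 minus the mean of replicates 1 and 2, over both genotypes, was 3.73 for ndhH (SE 0.152, 6 arrays), which would be 13.3-fold if the base is 2. This was rank 1 of 22746 probe sets from the highest.

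rps15 encodes a protein of the small plastid ribosomal subunit and opens the cluster. Its values were -0.45, -1.24 and 1.69 on the control arrays and -0.66, -0.62 and 1.86 on the 35S-PaWRKY1 arrays, again in the order of replicate numbers. The difference by number was 2.51 (SE 0.175), rank 9 of all probe sets. ndhA, a membrane subunit whose gene carries an intron, had values of -0.37, -0.73 and 1.09 in the controls and -0.66, -0.44 and 1.33 in 35S-PaWRKY1. Its difference was 1.76 (SE 0.148), rank 35. For these 3 genes the replicate 3 arrays stood clear of the other 4 in both genotypes.

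Further along, the differences were smaller. ndhI, an iron-sulfur subunit, had values of -0.20, -0.41 and 0.60 in the controls and -0.22, -0.31 and 0.66 in 35S-PaWRKY1. Its difference was 0.91 (SE 0.0928), with both replicate 3 arrays above all others. ndhG, a membrane subunit, had values of 0.026, -0.38 and 0.35 in the controls and -0.34, -0.024 and 0.24 in 35S-PaWRKY1, a difference of 0.47 (SE 0.16). ndhE, a small membrane subunit, was the exception: its values were 0.25, -0.25 and -0.00012 in the controls and -0.18, -0.15 and -0.053 in 35S-PaWRKY1. Control replicate 1, not a replicate 3 array, was highest for ndhE, and its difference by number was 0.056 (SE 0.135), rank 8413.

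The last 2 genes of the cluster lay higher again than ndhE. psaC encodes the iron-sulfur protein of photosystem I that hands electrons to ferredoxin, and is the only member that belongs to a photosystem. Its values were -0.087, -0.42 and 0.50 in the controls and -0.55, -0.22 and 0.84 in 35S-PaWRKY1, with a difference of 0.99 (SE 0.178), rank 110. ndhD, a large membrane subunit, had values of 0.038, -0.29 and 0.25 in the controls and -0.33, -0.34 and 0.13 in 35S-PaWRKY1. The difference for ndhD was 0.42 (SE 0.109), rank 1136, and its replicate 3 arrays exceeded the next array by little.

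In order of the difference by number the genes were ndhH, rps15, ndhA, psaC, ndhI, ndhG, ndhD and ndhE. In this order 2 pairs of neighbours lay within their SEs of each other: psaC at 0.99 with ndhI at 0.91, and ndhG at 0.47 with ndhD at 0.42. Taken per genotype, the order of ndhH, rps15 and ndhA at the top and ndhE at the bottom was the same, and the 4 genes between changed places. Control replicate 3 exceeded the mean of its group's other arrays by 3.68 for ndhH, and 35S-PaWRKY1 replicate 3 by 3.78. For rps15 these values were 2.53 and 2.50, and for ndhA 1.64 and 1.88. The fall was thus alike in both genotypes: relative to ndhH, ndhA showed 44.5% and 49.7% of the log difference, ndhI 24.6% and 24.4%, and ndhG 14.4% and 11.1%. psaC differed most between the genotypes, at 0.76 in the controls and 1.22 in 35S-PaWRKY1, a gap that cannot be tested with 1 replicate 3 array in each group.

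**Figure D2:**
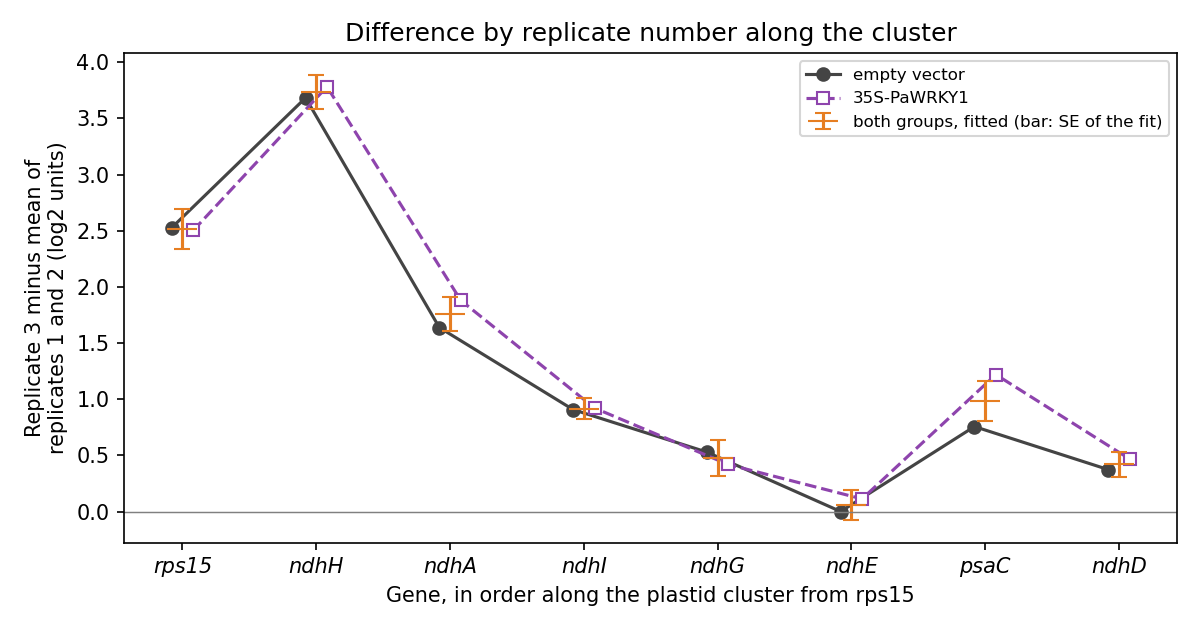
Replicate 3 minus the mean of replicates 1 and 2, in log2 units, for each gene in cluster order, separately for empty vector (filled circles) and 35S-PaWRKY1 (open squares), with the fitted value over both groups and its SE (orange). The difference peaks at ndhH (3.73), falls to 0.056 at ndhE and is 0.99 at psaC.

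In limma's F test of replicate number beside genotype, adjusted by Benjamini-Hochberg over all probe sets, 3 of the 8 genes (rps15, ndhH and ndhA) passed 0.05, where 0.426% of all probe sets did. At an unadjusted p under 0.05 there were 6 of 8, against 12.8%. The choice of the cluster used this contrast, so nothing is read from these counts. After a normalization to equal quantiles limma called 0 of the 8, with 6 at an unadjusted p under 0.05, and over all probe sets the calls went from 97 to 0, with 2374 at an unadjusted p under 0.05. The differences there were 4.04 for ndhH, 2.53 for rps15 and 1.76 for ndhA. Leaving out control replicate 2, or 35S-PaWRKY1 replicate 2, left ndhH alone of the 3, and took the calls over all probe sets to 6 and 8. In those fits rps15 was at 2.36 and 2.67, and ndhA at 1.68 and 1.84. Leaving out 35S-PaWRKY1 replicate 3 removed the call of ndhA, at a difference of 1.64, with 171 calls over all probe sets.

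Within a genotype, replicates 1 and 2 also differed in the cluster. Control replicate 1 lay above control replicate 2 for 8 of 8 genes, with a median difference of 0.37, while 42.7% of all probe sets showed that direction. In 35S-PaWRKY1, replicate 1 lay above replicate 2 for 2 of 8 genes, ndhI and ndhD, against 50.3% of all probe sets, and the median was -0.13. The other plastid genes did much the same. Replicate 1 lay above replicate 2 for 50 of those 61 in the controls (median 0.30) and for 19 in 35S-PaWRKY1 (median -0.046). The step between control replicates 1 and 2 was 0.38 for ndhH and 0.79 for rps15, well below their difference on replicate 3. For ndhE it was 0.51, above its difference on replicate 3.

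Across the 6 arrays the members had like profiles, apart from ndhE. Pearson correlations among the 21 pairs without ndhE ran from 0.83 to 0.996, and those of the 7 pairs with ndhE from 0.19 to 0.65. These are descriptions over 6 arrays that share the replicate 3 pair, which sets most of each value.

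Neighbours of the cluster were unlike one another. ccsA, for cytochrome c assembly, lies just beyond ndhD. It had values of -0.51, -0.81 and 1.32 in the controls and -0.30, -0.32 and 1.21 in 35S-PaWRKY1, a difference by number of 1.75 (SE 0.144). rpl32, the next protein gene after ccsA, encodes a ribosomal protein and was at -0.17 (SE 0.224). The gene ycf1, on the other side of rps15, has a probe set assigned to 2 gene entries and was not used.

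The plastid ndh genes outside the cluster also varied. ndhJ and ndhK, for hydrophilic NDH subunits, were 2.14 (SE 0.14) and 1.93 (SE 0.111) higher on the replicate 3 arrays. ndhC, a membrane subunit gene that lies next to ndhK, was at -0.03 (SE 0.129). ndhF, a membrane subunit gene that lies beyond rpl32, was at -0.30 (SE 0.138). High and near-zero differences thus stood side by side in that group as well as in the cluster. ndhB has a probe set assigned to 2 gene entries and was not used.

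Higher values on replicate 3 were shared by most of the plastid genes. Both replicate 3 arrays lay above the other 4 for 50 of the 61 other plastid genes. They lay below the other 4 for 5 of these and for 0 of the 8 cluster genes, against 12.1% of all probe sets. The median difference by number was 1.61 in that group. For the 8 cluster genes the median was 0.95, and over all probe sets it was -0.0022. A difference of at least 1 was seen for 3 of the 8 cluster genes and for 40 of the 61 others, against 0.444% of all probe sets. The cluster held both the highest value of the plastid genes, ndhH, and values close to 0. Outside it, the highest was rpoC1, for a subunit of the plastid RNA polymerase, at 3.33 (SE 0.121). The lowest was petD, for subunit IV of the cytochrome b6f complex, at -2.44 (SE 0.138). Whether the cluster differs from the other plastid genes was not tested.

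**Figure D3:**
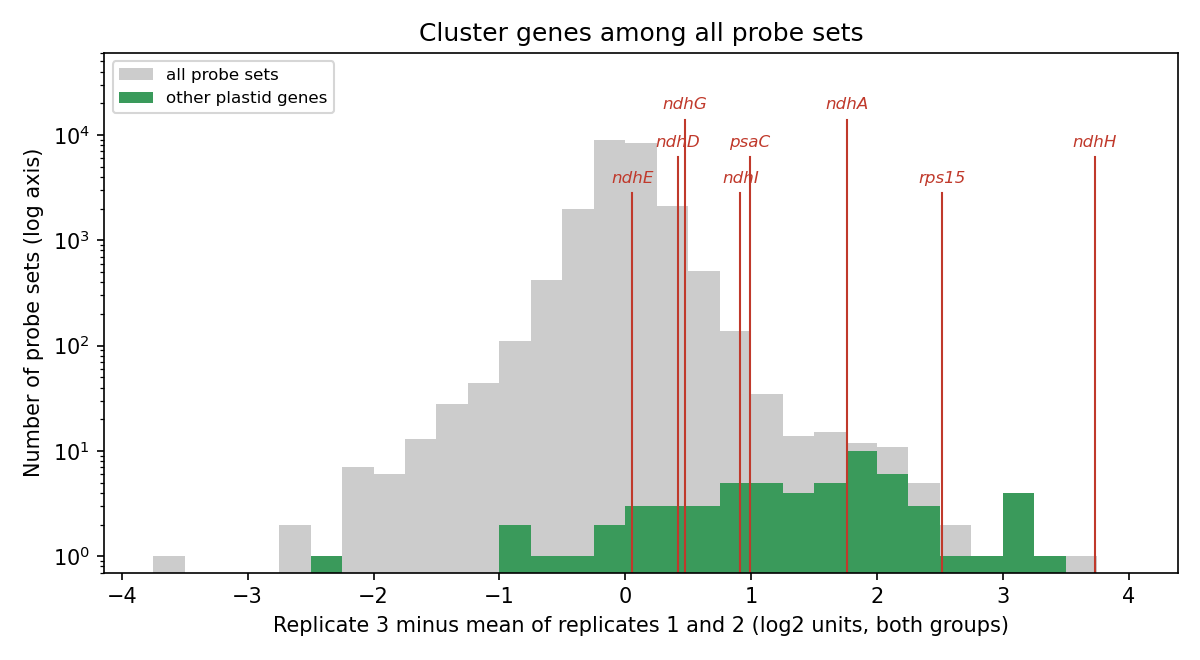
Number of probe sets (log axis) by replicate 3 minus the mean of replicates 1 and 2 in log2 units, for all probe sets (grey) and the 61 other plastid genes (green), with the 8 cluster genes marked in red. The cluster genes spread from 0.056 (ndhE), inside the bulk of the array, to 3.73 (ndhH), the highest value of all.

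Among probe sets of 1 gene outside the cluster, 1250 varied enough to be compared with the mean profile of the 8 genes over the 6 arrays. Of the 50 with the highest Pearson correlation, 37 were plastid genes, and the 1250 held 49 plastid genes. The 6 highest were AT1G32810, a nuclear gene, at 0.997, then the plastid genes rpoC2 at 0.997, psbH at 0.996, rpl22 at 0.996, rps16 at 0.996 and rbcL at 0.996. The sixth plastid gene was atpB at 0.995. The next nuclear genes were AT5G14720 at 0.992 and AT5G24710 at 0.991, on ranks 13 and 14. AT1G32810 had values of -0.22, -0.54 and 0.76 in the controls and -0.56, -0.34 and 0.80 in 35S-PaWRKY1. Correlation over 6 arrays compares shapes only, and the difference by number of AT1G32810 was 1.20, smaller than that of ndhH.

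Other measures that could move with replicate number were set beside the cluster. Of 30 nuclear photosynthesis genes listed as green tissue markers, 5 were matched to a probe set (LHCB4.1, PSAE-1, RCA, PRK and SBPASE). Their mean ran from -0.035 to 0.055 over the 6 arrays, and their differences by number from -0.085 for RCA to 0.15 for SBPASE. For SBPASE both replicate 3 arrays lay above the other 4, and its difference exceeded that of ndhE. For RCA both lay below the other 4. That is 1 of the 5 above and 1 below, against 12.5% and 12.1% of all probe sets. Of 20 root markers, 4 were matched (PYK10, EXPA7, EXPA18 and XTH26), with means of -0.18 to 0.08 and differences by number of -0.18 to 0.087. Since no level is given, no marker can be called absent.

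Mitochondrion-encoded respiratory chain genes, recognised by symbol, had 17 probe sets for 10 symbols, 7 of them for nad1. The median difference by number over these probe sets was -0.038. Both replicate 3 arrays lay above the other 4 for 1 of the 17 and below them for 3, against 12.5% and 12.1% of all probe sets. The array's 25S ribosomal RNA probe set was at -0.54, -1.12 and 1.67 in the controls and -1.27, -0.72 and -0.99 in 35S-PaWRKY1. It was high on control replicate 3 and not on 35S-PaWRKY1 replicate 3, unlike the cluster. For actin, GAPDH and ubiquitin, the 3′ minus the 5′ probe set, used to compare RNA quality between arrays, ran from -0.25 to 0.21 over all arrays. Both values are relative to the control mean, so a value near 0 does not show that the RNA was intact. This measure was lower on replicate 3 than on the mean of replicates 1 and 2 for each gene, by at most 0.15 in the controls and 0.24 in 35S-PaWRKY1. The part of tissue share, ribosomal RNA and RNA quality in the replicate 3 values was not tested.

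Nuclear genes act with the plastid subunits. Of 25 genes listed for NDH subunits, assembly and cyclic electron flow, 5 were matched. The subunit genes NdhL, NdhN and NdhS had differences by number of -0.27 (SE 0.1), -0.11 (SE 0.098) and -0.22 (SE 0.097). PGRL1B, of the other route of cyclic flow, was at 0.080 (SE 0.136), and PAM68, an assembly factor of photosystem II, at 0.42 (SE 0.111), beside 0.42 for ndhD. In limma's F test of replicate number 0 of these 5 passed after adjustment over all probe sets, where 0.426% of all probe sets did. An unadjusted p under 0.05 was seen for 2 of the 5, against 12.8%. Both replicate 3 arrays lay above the other 4 for 1 of the 5, PAM68, against 12.5% of all probe sets. They lay below for 2 of the 5, NdhL and NdhS, against 12.1%.

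Of 19 genes listed for plastid RNA editing and processing, 7 were matched. Of these, 0 passed the same F test, against 0.426% of all probe sets, and 2 had an unadjusted p under 0.05, against 12.8%. CRR28, which acts in editing of ndh messages including ndhD, was highest at 0.80 (SE 0.0989), with values of -0.29, -0.21 and 0.50 in the controls and -0.14, -0.24 and 0.66 in 35S-PaWRKY1. Its replicate 3 arrays lay above the other 4, and so did those of OTP86. That is 2 of the 7, with 0 below, against 12.5% and 12.1% of all probe sets. CRR21, CRR22 and OTP85, which also edit sites in ndhD, were at -0.12 (SE 0.115), 0.077 (SE 0.122) and -0.014 (SE 0.116). OTP86, an editing factor for rps14, was at 0.39 (SE 0.102), OTP84, which edits ndhF and psbZ, at 0.28 (SE 0.175), and OTP81, also an RNA processing factor, at 0.28 (SE 0.167). Of 17 genes listed for plastid transcription, RPOTmp, a nuclear-encoded organelle RNA polymerase, was the 1 matched, at 0.082 (SE 0.0955).

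The genotype contrast asks whether the cluster's transcripts differed between plants labelled with the 35S-PaWRKY1 construct and those with the empty vector. Each difference was smaller in size than its SE in the unblocked fit, which rests on the spread within each group. For 7 of the 8 genes that spread includes the high values on both replicate 3 arrays. The SEs in this paragraph, from the unblocked fit, include it too. SEs with the replicate number as a block are smaller and are given further on. ndhH had a genotype difference of 0.26 (35S-PaWRKY1 minus control; SE 1.35, 3 arrays each), and its SD was 2.13 among the controls and 2.19 among 35S-PaWRKY1 arrays. The others were 0.20 for rps15 (SE 0.923), 0.079 for ndhA (SE 0.645), 0.042 for ndhI (SE 0.34), -0.040 for ndhG (SE 0.218), -0.13 for ndhE (SE 0.137), 0.023 for psaC (SE 0.386) and -0.18 for ndhD (SE 0.183). In limma, adjusted over all probe sets, 0 of the 8 passed, where 0.0308% of probe sets did. At an unadjusted p under 0.05 the count was 0 of 8, against 8.01%, from SEs that include the replicate 3 values. The groups did not overlap for 0 of 8, against 14.5%. For 7 of the 8 genes this was fixed beforehand: each group holds 1 of the 2 replicate 3 arrays that lay above all others. Nothing about genotype is therefore read from the overlap.

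The median genotype difference of the 8 genes was 0.032, beside 0.044 for the other plastid genes and -0.037 for all probe sets. Leaving out single arrays took the median from -0.36 (without 35S-PaWRKY1 replicate 3) to 0.31 (without control replicate 3). Each of these fits leaves 1 group without its replicate 3 array, so the difference by number enters the value. Without both replicate 3 arrays the median was -0.0025. The direction also depended on the replicate number. In replicate 1, 35S-PaWRKY1 lay above control for 0 of 8 genes, against 50.4% of all probe sets, with a median of -0.33. In replicate 2 it lay above for 7 of 8, against 42%, with a median of 0.24. In replicate 3 it lay above for 5 of 8, against 37.8%, with a median of 0.11. The other plastid genes also changed direction with the number. Of those 61, 35S-PaWRKY1 lay above control for 21, 53 and 39 in replicates 1, 2 and 3, with medians of -0.11, 0.17 and 0.10. For ndhH the differences within replicates 1, 2 and 3 were -0.11, 0.56 and 0.32.

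**Figure D4:**
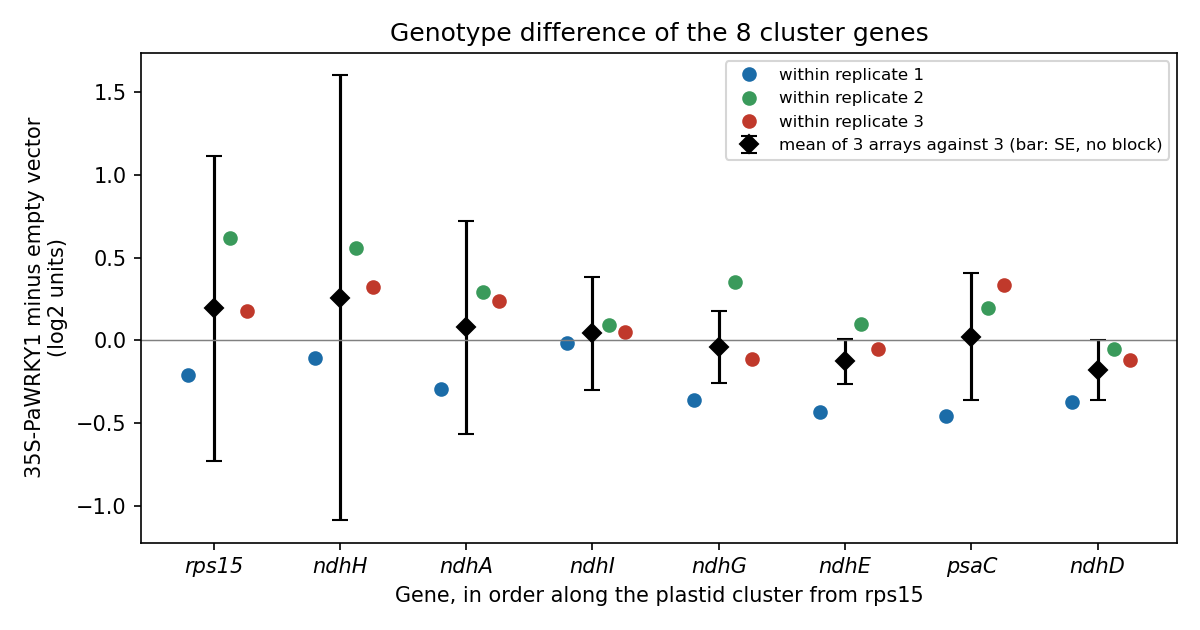
35S-PaWRKY1 minus empty vector in log2 units for each cluster gene, as the difference of group means (black diamonds, bars are the SE of the fit without a block, n = 3 per group) and within each replicate number (coloured points). All 8 points of replicate 1 lie below 0, and the SE for ndhH is 1.35.

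With the replicate number as a block, the SE of ndhH fell to 0.143 and that of rps15 to 0.165. The others were 0.14 for ndhA, 0.0875 for ndhI, 0.151 for ndhG, 0.127 for ndhE, 0.168 for psaC and 0.103 for ndhD. In that fit limma still called 0 of the 8, against 0.0264% of all probe sets. The block left the differences themselves as they were. In size, those of ndhH (0.26), rps15 (0.20) and ndhD (-0.18) exceeded their SEs in the blocked fit. That of ndhE (-0.13) was about equal to its SE, and the others were smaller than theirs. In the unblocked fit the 61 other plastid genes gave 0 calls by genotype as well, against 0.0308% of all probe sets. Among them 1 had an unadjusted p under 0.05, against 8.01%. Their largest values above control were 0.36 for psbZ (SE 0.101) and 0.31 for psbC (SE 0.605), both photosystem II genes, and 0.27 for petN (SE 0.211). The largest below control were -0.26 for psbB (SE 0.187), another photosystem II gene, -0.22 for petG (SE 0.886) and -0.19 for rpl36 (SE 0.226). petN and petG encode small subunits of the cytochrome b6f complex, and rpl36 encodes a ribosomal protein. The arrays, 3 per group, limit the precision of all these values.

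By genotype, 0.0308% of all probe sets passed in limma after adjustment over all probe sets. Of the nuclear lists, 0 of 5 NDH and cyclic flow genes, 0 of 7 editing and processing genes and 0 of 1 transcription gene did. At an unadjusted p under 0.05 there were 0 in each of these lists, against 8.01% of all probe sets. Among the first, NdhN was at 0.17 (SE 0.0943) and NdhL at -0.13 (SE 0.139). NdhS was at -0.080 (SE 0.15), PAM68 at -0.19 (SE 0.177) and PGRL1B at -0.020 (SE 0.12). For the second, OTP85 was lowest at -0.28 (SE 0.121) and OTP84 highest at 0.16 (SE 0.179). The groups did not overlap for OTP85 and RPOTmp, against 14.5% of all probe sets. With so few genotype calls among all probe sets, the absence of calls says nothing particular about these lists.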

How the data were processed

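Total RNA of whole seedlings was hybridised to 6 Affymetrix arrays, 3 per group, per the labels' protocols. The authors deposited log values, taken here to be log2, and MAS5 and RMA are named, without role or version, per the submitters' processing notes. In the file the 3 control arrays average 0 for every probe set. For the log base, the direction and how arrays were normalized against each other, the answer is not given in the sources used here. Array medians ran from -0.0464 to 0.0137, so the values were used as deposited by the authors.

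Of 22810 probe sets, 64 control probe sets were left out of the tests. Genes were named through GEO's annotation of the platform, possibly dated (13513 probe sets with 1 gene, 503 with several, 8730 with none given), and ordered by RefSeq's gene table (assembly TAIR10.1). The cluster genes and gene lists were chosen with earlier results of these data known. Named are the 8 genes, other plastid ndh and flanking genes, the 3 highest and 3 lowest other plastid genes by genotype difference, matched list members, and the 6 genes (and 6 plastid genes) most like the cluster's mean profile, among probe sets with at least 0.5 of its root mean square. The petD, rpoC1, AT5G14720 and AT5G24710 values were picked after seeing them. Of 111 listed genes, those without a match are unnamed here, not missing from the array.

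Genotype, and replicate number beside genotype, were fitted in R 4.3.3 with limma 3.58.1 (lmFit, then eBayes), two-sided for single coefficients, with Benjamini-Hochberg adjustment over 22746 probe sets. SEs are those of the moderated fit. Separate cultures are not stated, so a p-value covers only the spread among these samples, which may be technical. To check for pairing, each array's deviation from its group mean was correlated with that of its same-numbered partner: r was 0.314 (replicate 1), 0.194 (replicate 2) and 0.453 (replicate 3), all over 0.1, which met the limit set for pairing, though the labels state none. An r of 0.171 was also seen between arrays that do not share a number, the first control and the second 35S-PaWRKY1. Genotype values come from the unblocked fit unless a block is named. The fits were tested on simulated data. Alternatives were quantile normalization, median centring, array weights, robust eBayes, a replicate block, a stricter threshold and arrays left out. Python 3.11.15 with matplotlib 3.10.9 drew the figures.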

Additional observations from a re-analysis of the deposited data

How the results depend on the processing

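Over all probe sets, limma's 7 genotype calls became 0 with quantile normalization and without both replicate 3 arrays, 11 with array weights, 1 with robust eBayes, 1 at an adjusted p under 0.01 and 0 to 1 with single arrays left out. With the replicate number as a block there were 6. The cluster had 0 genotype calls, and 0 genes at an unadjusted p under 0.05, under each of these fits, and the block changed no call in it. The median genotype difference ran from -0.359 to 0.309 with single arrays left out. Leave-one-out ranges spanned 0 for rps15 (-0.639 to 1.04), ndhH (-1.003 to 1.485), ndhA (-0.548 to 0.625), ndhI (-0.265 to 0.344), ndhG (-0.229 to 0.136) and psaC (-0.384 to 0.308). For rps15, ndhH, ndhA and ndhI both ends came from leaving out a single replicate 3 array in the unblocked fit. Such a fit leaves 1 group without its high array, so the difference by number enters the value. Without both replicate 3 arrays ndhH was at 0.224. ndhG also turned to 0.0199 with quantile normalization and 0.106 with array weights, and without both replicate 3 arrays ndhA was at -0.0018 and psaC at -0.132. The 97 calls by replicate number became 0 with quantile normalization and 6 to 171 with single arrays left out. They became 174 with a moderated t of replicate 3, chosen after seeing the data. In the cluster the 3 calls became 0 with quantile normalization and 1 to 3 with single arrays left out. The cause of these changes was not tested. Without both replicate 3 arrays the F test compares only replicates 1 and 2, so it cannot show the difference of replicate 3. That fit gave 7 calls over all probe sets and 0 in the cluster, where 0 had an unadjusted p under 0.05. The difference of replicate 3 kept its sign for 7 of 8 genes under each fit that had replicate 3 arrays, and that of ndhE ran from -0.0581 to 0.17 with single arrays left out. The median of that difference then ran from 0.832 to 1.07. With 2 arrays per number, the precision of the replicate contrast is limited.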
